A study of Rattus norvegicus with 17 samples.

Results

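The RNA polymerase II (RNAPII) peaks of immature oligodendrocytes (iOL) are set here against the peaks of Brg1 and Olig2 in the same cells. All 1425 peaks of the iOL RNAPII list were taken, of 189320 peaks in the 17 lists of the series, and none was left out. Each was given its distance in rn4 to the nearest of 5465 iOL Brg1 peaks and of 25787 iOL Olig2 peaks. The control set was the 9220 iOL H3K4me3 peaks that share no base with RNAPII, of 10467 H3K4me3 peaks; the other 1247 (11.9%) held RNAPII.

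The study mapped Brg1, Olig2, RNAPII and histone marks by ChIP-seq across oligodendrocyte stages. All groups were wild-type primary cells of Sprague-Dawley rats, taken from the cortices of 2-day-old pups, with 1 library per target and stage. The iOL libraries for RNAPII, Brg1, Olig2, H3K4me3 and H3K27Ac carry the label T3 treatment, which the protocol gives as T3 at 15 nM with ciliary neurotrophic factor at 10 ng/ml. Mature oligodendrocytes (mOL) are labelled with T3 as well, and precursors (OPC) with mitogens, PDGF-AA at 10 ng/ml and bFGF at 20 ng/ml. The number of animals per library and the time in culture were not stated. Peak lists hold no gene levels, so the labelled cell type was not checked against markers.

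RNAPII transcribes protein-coding genes and is held at many promoters before elongation, so its sharpest ChIP-seq peaks usually lie at transcription start sites. H3K4me3 marks promoters, and H3K27Ac marks active promoters and enhancers. Olig2 is a basic helix-loop-helix factor that specifies the oligodendrocyte lineage. Brg1 (Smarca4) is the ATPase of the SWI/SNF (BAF) chromatin remodeling complex, which moves nucleosomes, and both proteins bind many sites away from promoters in this lineage. The comparison asks how near promoter-type regions with RNAPII lie to Brg1 and Olig2, relative to promoter-type regions without it.

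RNAPII peaks met Brg1 and Olig2 more often than control promoters did, but the excess was found at short range. A peak meets another when at least 1 base is shared. Brg1 was met by 69 of 1425 RNAPII peaks (4.84%, exact 95% interval 3.79 to 6.09), against 216 of 9220 control peaks (2.34%, 2.04 to 2.67). Over all 10467 H3K4me3 peaks, 2.30% met Brg1. Olig2 was met by 209 RNAPII peaks (14.7%, 12.9 to 16.6), against 657 control peaks (7.13%, 6.61 to 7.67), with 7.21% over all H3K4me3 peaks. The difference was 2.50 percentage points for Brg1 (95% interval 1.45 to 3.77) and 7.54 for Olig2 (5.72 to 9.54). These intervals cover the counting error of peaks in 1 library per target, not the spread between cultures, and no test between conditions was made.

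Farther out the Brg1 difference was smaller. Within 5 kb, 8.28% of RNAPII peaks and 6.15% of control peaks had Brg1 (all H3K4me3 peaks, 5.95%), a difference of 2.13 points (0.715 to 3.75). Within 20 kb the shares were 14.5% and 14.0% (13.6% of all), a difference of 0.411 points (-1.47 to 2.45). Within 100 kb they were 37.2% and 39.0% (38.6% of all), a difference of -1.85 points (-4.52 to 0.875). Neither interval at 20 or 100 kb excluded 0. The median RNAPII peak lay 163.9 kb from Brg1 and the median control peak 155.9 kb.

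Olig2, with its longer list, lay closer to both sets. Within 5 kb it was found at 27.3% of RNAPII peaks and 22.2% of control peaks (22.0% of all H3K4me3 peaks), a difference of 5.05 points (2.64 to 7.57). Within 20 kb the shares were 51.0% and 47.9% (47.6% of all), and the difference of 3.13 points had an interval of 0.344 to 5.91. Within 100 kb nearly every region had an Olig2 peak, 89.8% with RNAPII and 89.5% in the control set (89.5% of all). The median distance was 19.1 kb for RNAPII peaks and 21.6 kb for control peaks.

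Both factors lay nearer to both sets than circularly shifted copies of themselves. Each factor list was moved around its chromosomes by 100 evenly spaced steps, which keeps the number, widths and spacing of its peaks. For RNAPII peaks, the shifted Brg1 list was met by 0.410% on average (range 0.0702 to 0.772), and for control peaks by 0.419% (0.239 to 0.575). The shifted Olig2 list gave 1.83% (1.05 to 2.88) for RNAPII peaks and 1.70% (1.33 to 2.20) for control peaks. Within 20 kb the shifted means were 7.57% and 7.47% for Brg1, and 29.1% and 28.6% for Olig2. The observed share was 11.8 times the shifted mean for RNAPII meeting Brg1, against 5.60 times for control peaks. Within 100 kb the same ratios for Brg1 were 1.33 and 1.42.

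The RNAPII list was not one kind of region. A total of 1044 peaks (73.3%) shared sequence with iOL H3K4me3, and 381 (26.7%) did not. H3K27Ac was present at 230 of the 381 peaks without H3K4me3 (60.4%) and at 1010 of the 1044 peaks with it (96.7%). In the control set 76.8% were acetylated. H3K9me3, a mark of silent heterochromatin, was met by 1 RNAPII peak. The iOL H3K9me3 list was short, with 827 peaks over 0.639 Mb. The count was not set against a background, so it does not show avoidance. The 381 peaks lay a median of 32.7 kb from the nearest iOL H3K4me3 peak (quartiles 4.24 and 111.1 kb), and 26.5% of them lay within 5 kb of one. Their widths were close to those of the others, with medians of 1060 bp without H3K4me3 and 1042 bp with it.

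The higher contact with Brg1 and Olig2 lay in the RNAPII peaks that lacked H3K4me3. Of these, 49 of 381 met Brg1 (12.9%, 9.67 to 16.6), against 20 of 1044 RNAPII peaks with H3K4me3 (1.92%, 1.17 to 2.94). For Olig2 the counts were 125 of 381 (32.8%, 28.1 to 37.8) and 84 of 1044 (8.05%, 6.47 to 9.86). The differences were 10.9 points for Brg1 (7.78 to 14.7) and 24.8 points for Olig2 (19.9 to 29.9). Distance showed the same order. Olig2 lay a median of 7.18 kb from RNAPII peaks without H3K4me3 and 22.2 kb from those with it, and Brg1 lay 144.0 and 170.5 kb away. Within 100 kb of Olig2 the shares were 90.3% and 89.6%.

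**Figure D1:**
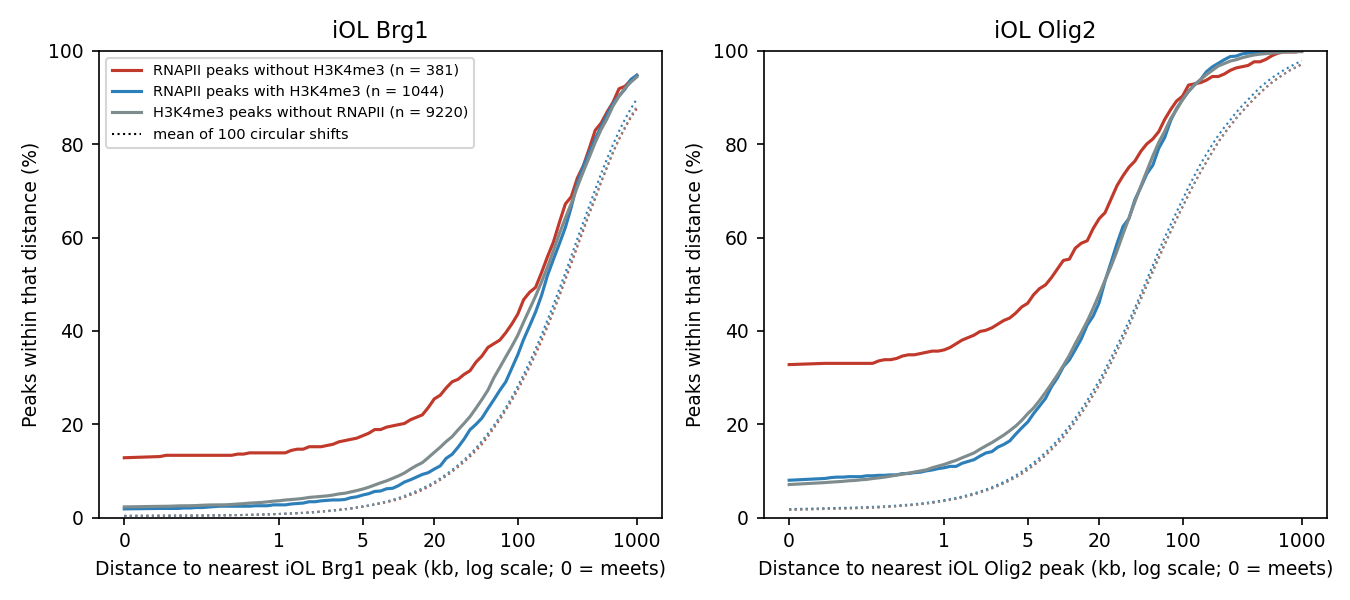
Share of regions (y, percent) with an iOL Brg1 peak (left) or Olig2 peak (right) within a given distance (x, kb, log scale, with meeting peaks at 0). Solid lines are RNAPII peaks without H3K4me3, RNAPII peaks with H3K4me3 and H3K4me3 peaks without RNAPII; dotted lines are the means over 100 circular shifts. The line for RNAPII without H3K4me3 starts at 12.9% for Brg1 and 32.8% for Olig2, while the other solid lines start at 1.92% and 2.34% for Brg1 and at 8.05% and 7.13% for Olig2.

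At promoters themselves, contact with either factor differed little between regions with and without RNAPII, and both intervals include 0. RNAPII peaks with H3K4me3 met Brg1 in 1.92% of cases, against 2.34% of control peaks, a difference of -0.427 points (-1.18 to 0.638). They met Olig2 in 8.05%, against 7.13%, a difference of 0.920 points (-0.675 to 2.80). For Brg1 the wider window gave lower shares with RNAPII. Within 20 kb, 10.4% of RNAPII peaks with H3K4me3 and 14.0% of control peaks had Brg1, a difference of -3.60 points (-5.46 to -1.49). Within 100 kb the shares were 34.9% and 39.0% (-4.18 points, -7.18 to -1.08). For Olig2 within 20 kb they were 46.3% and 47.9% (-1.62 points, -4.79 to 1.58), an interval that includes 0.

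H3K4me3 peaks with RNAPII were often wide, with 519 of the 1247 in the widest quartile of all H3K4me3 peaks, and wider regions meet more peaks. H3K4me3 peaks with and without RNAPII were therefore compared within quartiles of their width. Brg1 within 20 kb was less frequent with RNAPII in all 4 quartiles. In the narrowest quartile (183 to 659 bp) the shares were 8.37% with RNAPII and 11.4% without, and in the next (659 to 864 bp) 7.31% and 11.3%. In the third quartile (865 to 1184 bp) they were 8.50% and 14.2%, and in the widest (1184 to 6481 bp) 12.5% and 20.1%. The interval of the difference excluded 0 in the 2 wider quartiles, at -5.75 points (-8.77 to -1.84) and -7.59 points (-10.7 to -4.05). Olig2 within 20 kb was lower with RNAPII in 3 of the 4 quartiles and higher in the narrowest, at 47.3% with RNAPII and 44.8% without. Its interval excluded 0 in the third quartile, at -7.05 points (-12.8 to -1.11). At 0 kb no interval excluded 0 for either factor. Brg1 at 0 kb was lower with RNAPII in every quartile, at 3.66% and 5.00% in the widest. Olig2 at 0 kb was lower with RNAPII in all but the narrowest quartile, at 11.8% and 12.5% in the widest.

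**Figure D2:**
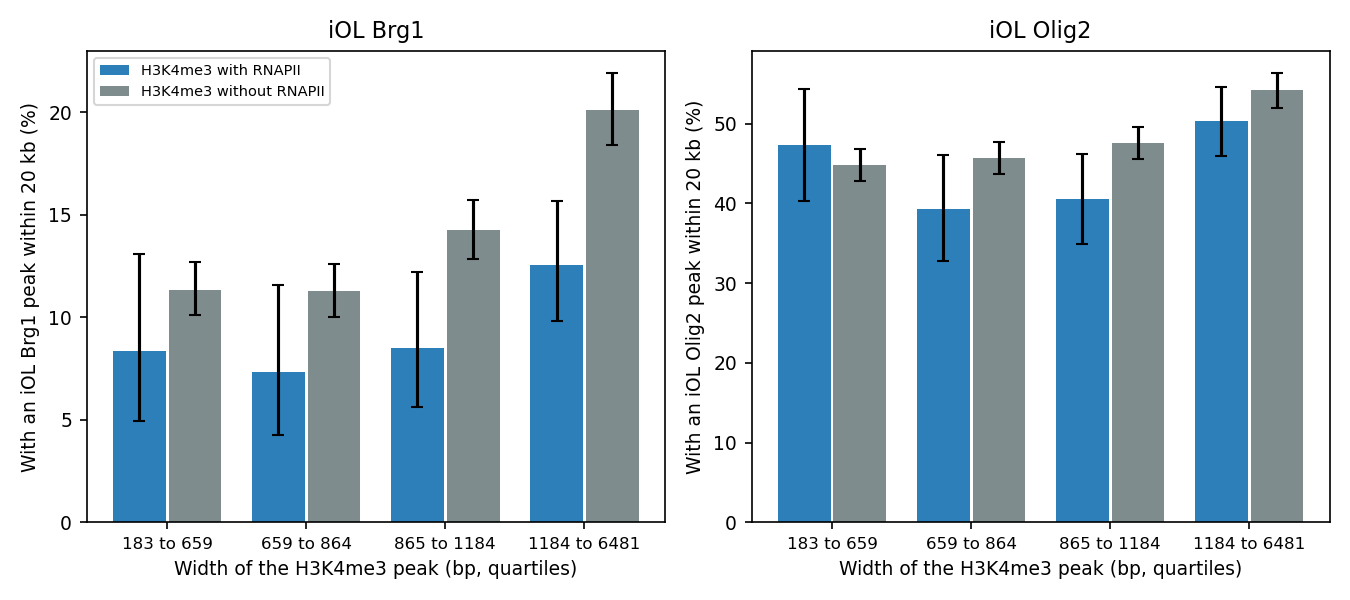
Share of iOL H3K4me3 peaks (y, percent) with an iOL Brg1 peak (left) or Olig2 peak (right) within 20 kb, by quartile of H3K4me3 peak width (x, bp), for peaks with RNAPII (blue) and without (grey). Error bars are exact 95% intervals of the share; Brg1 is lower with RNAPII in each quartile, with 12.5% and 20.1% in the widest.

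Promoter density moved with the same comparison. RNAPII peaks with H3K4me3 had a mean of 4.02 H3K4me3 peaks within 100 kb, counting their own, against 3.61 for control peaks. H3K4me3 peaks were split into quartiles of that number, at 1 to 2, 2 to 3, 3 to 5 and 5 to 16 peaks. Neighbouring quartiles share a bound, so regions with equal counts could fall in either. Brg1 within 20 kb was again lower with RNAPII in every quartile. From the sparsest quartile to the densest, it was found for 14.2%, 8.18%, 10.1% and 8.68% with RNAPII. Without RNAPII the shares were 16.3%, 14.7%, 14.0% and 11.0%. The interval of the difference excluded 0 in the middle 2 quartiles, at -6.54 points (-9.60 to -2.50) and -3.96 points (-7.02 to -0.201). For Olig2 within 20 kb it excluded 0 in the third density quartile alone, at -7.35 points (-12.7 to -1.85). At 0 kb no interval excluded 0 for either factor. In the sparsest quartile Brg1 was met by 5.05% with RNAPII and 3.17% without, and in the others it was lower with RNAPII. Olig2 at 0 kb was higher with RNAPII in every quartile, at 11.5% and 8.50% in the sparsest.

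The marks at the 381 RNAPII peaks without H3K4me3 split them into groups that differed widely in contact with the factors. With H3K27Ac, 46 of 230 met Brg1 (20.0%, 15.0 to 25.8) and 113 met Olig2 (49.1%, 42.5 to 55.8). With neither mark, 3 of 151 met Brg1 (1.99%, 0.412 to 5.70) and 12 met Olig2 (7.95%, 4.17 to 13.5). The differences were 18.0 points for Brg1 (12.1 to 23.8) and 41.2 points for Olig2 (32.8 to 48.4). The shares of RNAPII peaks with neither mark were close to those of RNAPII peaks with H3K4me3. Their median distance to Olig2 was 25.2 kb, against 22.2 kb for RNAPII peaks with H3K4me3 and 0.285 kb for the acetylated peaks without H3K4me3.

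**Figure D3:**
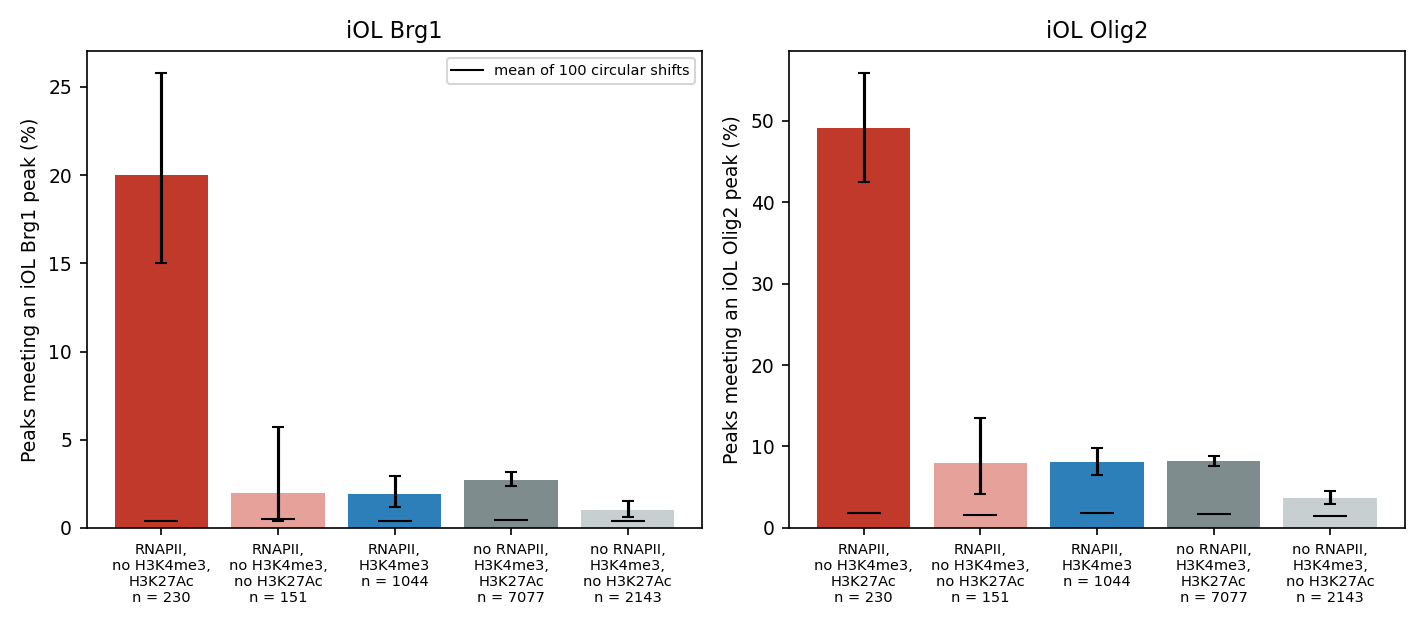
Share of regions (y, percent) that meet an iOL Brg1 peak (left) or Olig2 peak (right), for RNAPII peaks by iOL marks (3 bars at left) and H3K4me3 peaks without RNAPII by acetylation (2 bars at right). Error bars are exact 95% intervals and black dashes the means over 100 circular shifts; the acetylated RNAPII peaks without H3K4me3 stand at 20.0% and 49.1%, and each of the other groups is below 10% for both factors.

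A missing H3K4me3 call in iOL does not make a region distal, and H3K4me3 of the other stages separated the 381 peaks further. Of them, 159 (41.7%) met an H3K4me3 peak of OPC or mOL, and 222 met none at any of the 3 stages. Nearby iOL H3K4me3, within 5 kb, was found for 49.1% of the 159 and 10.4% of the 222. Brg1 was met by 39 of the 222 peaks without H3K4me3 at any stage (17.6%, 12.8 to 23.2), against 10 of the 159 (6.29%, 3.06 to 11.3), a difference of 11.3 points (4.67 to 17.5). Olig2 was met by 86 (38.7%, 32.3 to 45.5), against 39 (24.5%, 18.1 to 32.0), a difference of 14.2 points (4.70 to 23.1). The 159 still exceeded RNAPII peaks with iOL H3K4me3, by 4.37 points for Brg1 (1.36 to 9.32) and 16.5 points for Olig2 (10.2 to 23.9). Where H3K27Ac was present and H3K4me3 absent at every stage, 36 of 105 RNAPII peaks met Brg1 (34.3%, 25.3 to 44.2) and 75 met Olig2 (71.4%, 61.8 to 79.8).

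Acetylated regions without H3K4me3 are the matching background for those peaks, since both factors gather there with or without RNAPII. Among iOL H3K27Ac peaks without iOL H3K4me3, 57 of 356 with RNAPII met Brg1 (16.0%, 12.4 to 20.2), against 2751 of 12670 without RNAPII (21.7%, 21.0 to 22.4). Olig2 was met by 137 (38.5%, 33.4 to 43.8), against 6861 (54.2%, 53.3 to 55.0). The differences were -5.70 points for Brg1 (-9.22 to -1.47) and -15.7 for Olig2 (-20.7 to -10.4). With only the wider 50% of each factor list they were -2.56 for Brg1 and -4.49 for Olig2. At 0 kb both turned positive once H3K27Ac peaks with H3K4me3 at any stage were also left out. Then 44 of 137 peaks with RNAPII met Brg1 (32.1%, 24.4 to 40.6), against 2579 of 10168 without (25.4%, 24.5 to 26.2), and 88 met Olig2 (64.2%, 55.6 to 72.2), against 6425 (63.2%, 62.2 to 64.1). These differences, 6.75 points for Brg1 (-0.536 to 15.0) and 1.05 points for Olig2 (-7.32 to 8.64), had intervals that include 0. Farther out the regions with RNAPII stood lower for Brg1, by -3.36 points within 20 kb (-11.2 to 5.05) and -8.29 points within 100 kb (-16.7 to -0.180). For Olig2 the differences were -3.41 points within 5 kb (-11.4 to 3.37), -4.64 within 20 kb (-11.8 to 0.730) and 0.991 within 100 kb (-2.31 to 1.65).

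The turn came with a change in makeup. H3K27Ac peaks that carried H3K4me3 in OPC or mOL but not in iOL met both factors less often than those without H3K4me3 at any stage, and they made up 219 of the 356 peaks with RNAPII and 2502 of the 12670 without. In that group Brg1 was met by 5.94% with RNAPII and 6.87% without (-0.938 points, -3.59 to 3.12), and Olig2 by 22.4% and 17.4% (4.95 points, -0.298 to 11.1). Within each kind of acetylated region, no interval at 0 kb excluded 0 for either factor. Brg1 within 100 kb was lower with RNAPII in this kind as well, at 36.1% with RNAPII and 45.9% without (-9.81 points, -16.2 to -2.98). Width also moved with the comparison. H3K27Ac peaks without H3K4me3 at any stage had a median width of 1406 bp with RNAPII and 800 bp without. In their widest quartile (1299 to 10727 bp), which held 72 of the 137, Brg1 was met by 40.3% with RNAPII and 39.2% without, and Olig2 by 88.9% and 82.6%. In the quartile of 574 to 804 bp, with 19 RNAPII regions, Olig2 was met by 26.3% with RNAPII and 57.9% without (-31.6 points, -46.2 to -9.01), and in that of 804 to 1298 bp, with 28 RNAPII regions, by 46.4% and 65.8% (-19.4 points, -36.4 to -1.53).

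**Figure D4:**
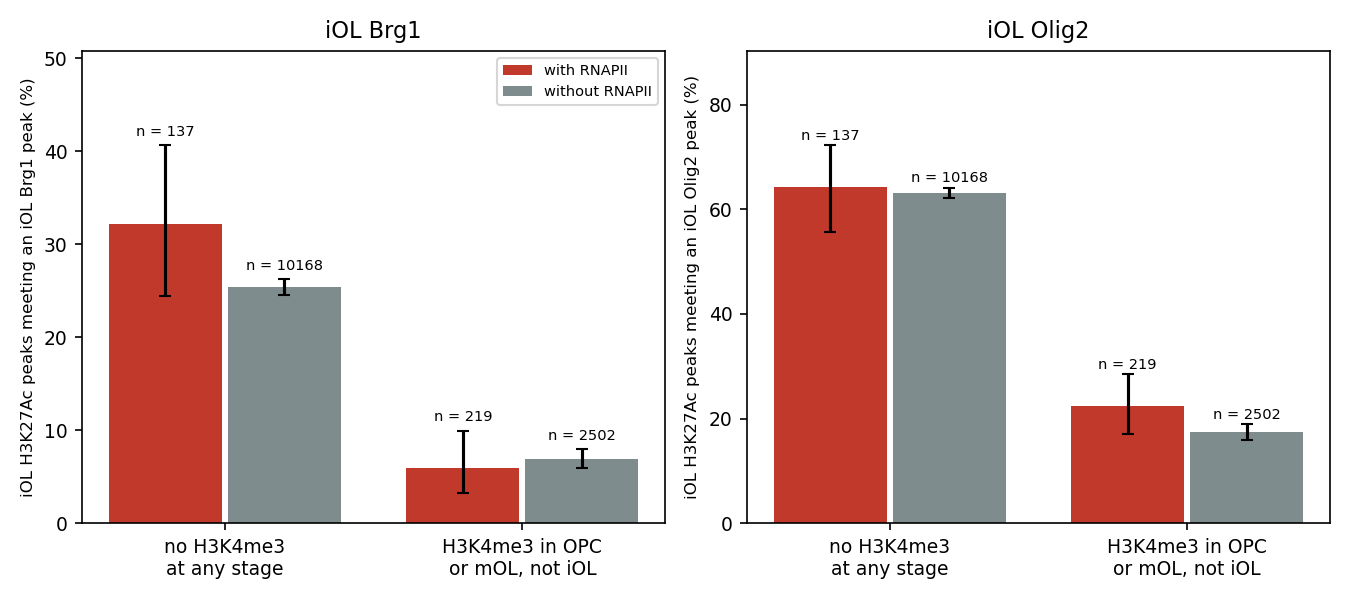
Share of iOL H3K27Ac peaks without iOL H3K4me3 (y, percent) that meet an iOL Brg1 peak (left) or Olig2 peak (right), with RNAPII (red) and without (grey), for regions with no H3K4me3 at any stage and regions with H3K4me3 in OPC or mOL. Error bars are exact 95% intervals; regions without H3K4me3 at any stage stand at 32.1% and 25.4% for Brg1, and those with H3K4me3 in OPC or mOL at 5.94% and 6.87%.

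Where RNAPII met Brg1, Olig2 was usually there as well. Of the 69 RNAPII peaks that met Brg1, 55 met Olig2 (79.7%, 68.3 to 88.4) and 14 did not. Most iOL Brg1 peaks met Olig2 whether or not RNAPII was present, at 4026 of all 5465. A further 154 RNAPII peaks met Olig2 alone, and 1202 RNAPII peaks (84.4%) met neither. Of the RNAPII peaks that met Brg1, 47 of 49 without H3K4me3 met Olig2 (95.9%, 86.0 to 99.5), against 8 of 20 with H3K4me3 (40.0%, 19.1 to 63.9). In the control set it was 102 of 216 (47.2%, 40.4 to 54.1). Acetylated regions without H3K4me3 gave a close value whether or not RNAPII was present, with 55 of 57 (96.5%, 87.9 to 99.6) and 2445 of 2751 (88.9%, 87.6 to 90.0). Joint contact was higher in acetylated regions without iOL H3K4me3 than at H3K4me3 peaks. Of the 55 RNAPII peaks with both factors, 44 had H3K27Ac without H3K4me3, 8 had H3K4me3 and 3 had neither mark.

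Where the lists met, most of the shorter peak was usually shared. Where RNAPII peaks without H3K4me3 met Brg1, the peak centres lay a median of 351.5 bp apart, and the shared part covered a median of 90.3% of the shorter peak. With H3K4me3 the centres lay 414.2 bp apart and 82.4% was shared, and in the control set 322.8 bp and 93.4%. The Brg1 centre lay within 250 bp for 14 of the 49 meetings without H3K4me3, 6 of the 20 with it and 93 of the 216 in the control set. For Olig2 the median centre distances were 276.5 bp without H3K4me3, 254 bp with it and 291.5 bp in the control set. A summit position is not part of these lists, so centres of peaks were used.

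Wider RNAPII peaks met Olig2 more often. From the narrowest RNAPII quartile (294 to 897 bp) to the widest (1272 to 5498 bp), Olig2 was met by 6.44%, 13.2%, 14.6% and 24.4% of peaks, and Brg1 by 2.24%, 5.34%, 5.62% and 6.18%. A wider peak also has more room for contact. Within 20 kb, where peak width adds little, Olig2 was found for 48.7%, 47.5%, 50.3% and 57.6%, and Brg1 for 11.8%, 14.0%, 15.4% and 16.6%. In the widest quartile, 50 of 96 RNAPII peaks without H3K4me3 met Olig2 (52.1%, 41.6 to 62.4), against 37 of 260 with H3K4me3 (14.2%, 10.2 to 19.1).

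RNAPII regions that were already present in OPC seldom met a factor, though within 20 kb they were less set apart. Of the 1425 peaks, 214 (15.0%) met an OPC RNAPII peak, out of an OPC list of 332. Without H3K4me3, Brg1 was met by 49 of 337 iOL peaks not in the OPC list (14.5%, 11.0 to 18.8), against 0 of 44 in it (exact interval 0 to 8.04). Olig2 was met by 122 of the 337 (36.2%, 31.1 to 41.6), against 3 of the 44 (6.82%, 1.43 to 18.7). With H3K4me3, the Olig2 shares were 8.81% of 874 peaks not in OPC and 4.12% of 170 also in OPC (4.69 points, 0.219 to 7.64), and the Brg1 shares were 2.17% and 0.588% (1.59 points, -1.19 to 2.88). Within 20 kb, Brg1 was found for 14.0% of peaks also in OPC and 14.5% of the others, and Olig2 for 47.7% and 51.6%. Without H3K4me3 these shares were 15.9% and 26.7% for Brg1, and 45.5% and 66.5% for Olig2. With H3K4me3 they were 13.5% and 9.84% for Brg1, and 48.2% and 45.9% for Olig2. Split by H3K4me3, only the Olig2 difference without it had an interval that excluded 0, at 21.0 points (5.63 to 35.6). The protocol of the OPC sample names the cells iOLs, and the stage used here is that of its title. The OPC RNAPII list is short, and a region absent from it cannot be told apart from one below its calling threshold.

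RNAPII peaks without H3K4me3 also had the highest share of the 3 groups in each factor list of the other stages. From OPC over iOL to mOL, the Brg1 lists held 452, 5465 and 4378 peaks. RNAPII peaks without H3K4me3 met them in 3.15%, 12.9% and 14.4% of cases. RNAPII peaks with H3K4me3 met them in 0 of 1044 cases, 1.92% and 0.766%, and control peaks in 0.0976%, 2.34% and 1.03%. For the 0 of 1044, 3 cases would be 0.287%, which lies below the upper end of the exact interval. The Olig2 lists held 21901, 25787 and 2759 peaks, and RNAPII peaks without H3K4me3 met them in 25.7%, 32.8% and 5.25% of cases. With H3K4me3 those shares were 3.83%, 8.05% and 0.192%, and in the control set 5.08%, 7.13% and 0.0976%. List length sets how often a list is met, so shares are read within a stage and not between stages.

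**Figure D5:**
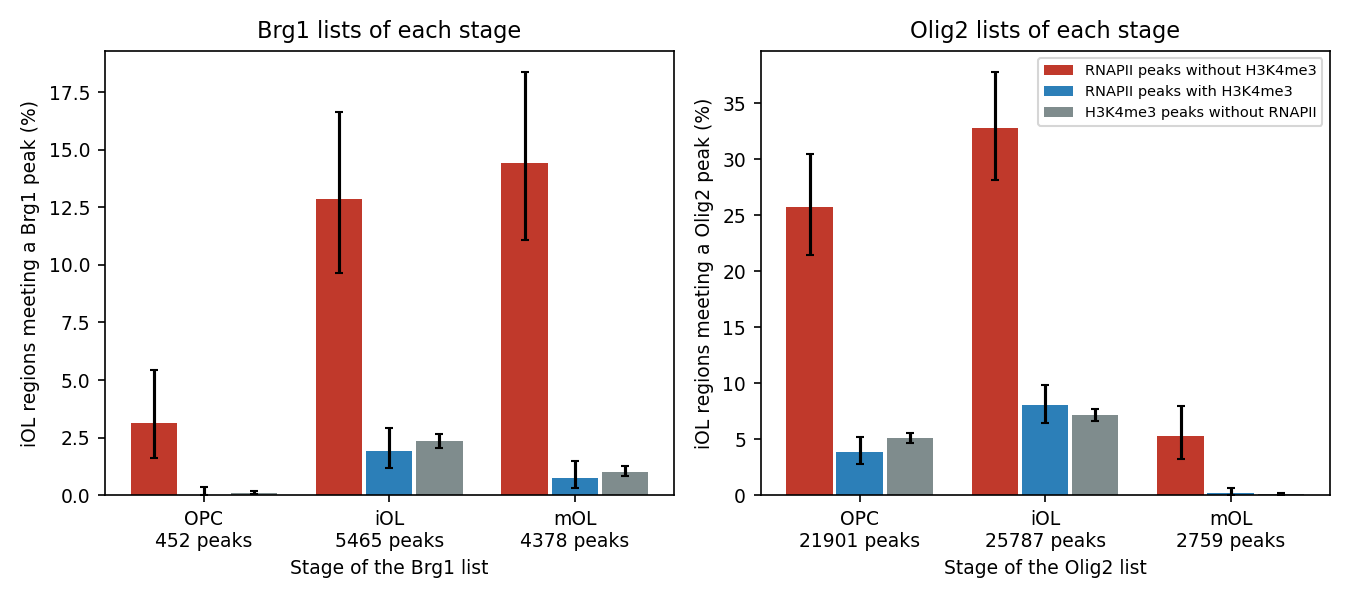
Share of iOL regions (y, percent) that meet a Brg1 peak (left) or Olig2 peak (right) of OPC, iOL or mOL (x, with the number of peaks in each list), for RNAPII peaks without H3K4me3 (red), RNAPII peaks with H3K4me3 (blue) and H3K4me3 peaks without RNAPII (grey). Error bars are exact 95% intervals; the red bar is the tallest of the 3 in every list, from 3.15% for OPC Brg1 to 32.8% for iOL Olig2.

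Read from the factors, RNAPII was less common at the nearest promoter than at promoters in general. The nearest H3K4me3 peak held RNAPII for 506 of 5465 Brg1 peaks (9.26%, 8.50 to 10.1) and for 2385 of 25787 Olig2 peaks (9.25%, 8.90 to 9.61), against 11.9% (11.3 to 12.6) of all H3K4me3 peaks. All acetylated regions without H3K4me3 gave 10.4% (9.86 to 10.9), and those without either factor 11.2% (10.4 to 12.0). The share over all H3K4me3 peaks counts each promoter equally, while a nearest promoter can be counted for several sites. Promoters with RNAPII had a mean of 4.13 H3K4me3 peaks within 100 kb, counting their own, against 3.61 without. The part of promoter density in this comparison was not tested. The nearest promoter in sequence need not be the one a distal site acts on. RNAPII itself was met by 1.26% of Brg1 peaks and 0.865% of Olig2 peaks, and the nearest RNAPII peak lay a median of 829.9 kb from Brg1 and 641.4 kb from Olig2. Factor-free acetylated regions lay 283.4 kb from RNAPII and a median of 20.3 kb from H3K4me3, while Brg1 peaks lay 97.8 kb from H3K4me3.

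RNAPII peaks without H3K4me3 shared an acetylated region with Brg1 or Olig2 at a higher rate than those with it. For RNAPII peaks in an H3K27Ac peak, Brg1 lay in the same H3K27Ac peak in 21.3% of cases without H3K4me3 (16.2 to 27.2, of 230) and in 2.87% with it (1.93 to 4.10, of 1010), against 3.07% of acetylated control peaks. With H3K27Ac peaks joined over gaps of up to 10 kb, Brg1 lay in the same domain in 27.5% without H3K4me3, 6.81% with it (5.34 to 8.54) and 9.54% of control peaks (8.87 to 10.2). For Olig2 the shares in those groups were 52.6%, 11.1% and 9.02% in the same H3K27Ac peak, and 60.5%, 22.4% and 24.5% in the same domain. In joined domains as within 20 kb, RNAPII peaks with H3K4me3 had Brg1 less often than control promoters. Of iOL H3K27Ac peaks with neither H3K4me3 nor RNAPII, 21.7% met Brg1 and 54.2% met Olig2, close to the same-peak shares without H3K4me3. The acetylated regions also differed in width. Median H3K27Ac peaks were 1.401 kb for RNAPII peaks without H3K4me3, 1.141 kb with it and 0.833 kb for control peaks. Joined domains had medians of 4.449, 2.177 and 2.086 kb. The part of width was not tested.

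The pattern at 0 kb was spread over the genome. RNAPII peaks met Brg1 more often than control peaks did on 19 of 21 chromosomes, and Olig2 on 19 of 21. No RNAPII peak met Brg1 on chromosome 9 (58 peaks) or X (33 peaks). Of control peaks, 2.28% met Brg1 on chromosome 9 and 0 of 282 on X, where no RNAPII peak met Olig2 either. Within 20 kb, RNAPII was higher on 13 of 21 chromosomes for each factor, with Brg1 shares of 3.03% to 26.0% for RNAPII peaks and 4.96% to 22.8% for control peaks.

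Single regions show the classes. No rn4 gene annotation was used here, so regions are given by position and not by gene. Of the 6 widest RNAPII peaks with both factors, 5 lacked iOL H3K4me3 and all 6 had H3K27Ac. The peak chr19:30603731-30605419 (1689 bp) lay 116.2 kb from H3K4me3 and met Brg1 in OPC, iOL and mOL, with 5 iOL Brg1 peaks and 9 Olig2 peaks within 100 kb. The peak chr4:81222857-81224378 (1522 bp), 200.4 kb from H3K4me3, met Brg1 of all 3 stages and Olig2 of all 3 stages. The peak chr1:199364271-199365847 (1577 bp), 176.6 kb from H3K4me3, met Olig2 of all 3 stages and Brg1 of iOL and mOL. The peak chr15:89679180-89680827 (1648 bp), 328.5 kb from iOL H3K4me3, met Brg1 of iOL and mOL, and it carried H3K4me3 at another stage. The widest of the 6, chr12:33684908-33686643 (1736 bp), was the only one with iOL H3K4me3, and it met neither factor in mOL.

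The densest Brg1 neighbourhood of any RNAPII peak was on chromosome 1. The peak chr1:44839320-44840967 (1648 bp) met both factors and had 14 Brg1 peaks and 10 Olig2 peaks within 100 kb. It lay in a stretch, chr1:44590118-44969110, of 379 kb with 5 RNAPII peaks, none with H3K4me3. That stretch held 16 Brg1 peaks and 14 Olig2 peaks of iOL, 31 H3K27Ac peaks and 5 H3K4me3 peaks, with 8 Brg1 peaks of mOL and 2 of OPC. Of the 5 RNAPII peaks, 4 met both Brg1 and Olig2, and 1 of these, chr1:44590118-44591613, had no H3K27Ac. The fifth, chr1:44968055-44969110, also had no H3K27Ac and lay 6.26 kb from Brg1 and 13.9 kb from Olig2, with 13 Brg1 peaks within 100 kb. The other peaks with the most Brg1 around them were promoters, chr8:24923562-24924408 with 8 Brg1 peaks and chr19:28980840-28982255 with 7, and both met Brg1 and H3K4me3 without Olig2.

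The widest peaks that met Brg1 and not Olig2 were promoters as well. All 4, chr17:36884565-36886093 (1529 bp), chr3:82246625-82248105 (1481 bp), chr19:28980840-28982255 (1416 bp) and chr7:44495627-44497016 (1390 bp), carried H3K4me3 and H3K27Ac and met Brg1 in iOL alone among the stages. Olig2 lay 25.9, 10.4, 5.70 and 87.2 kb from them. The 4 widest that met Olig2 and not Brg1 ran from chr1:15440558-15443642 (3085 bp, 29.5 kb from Brg1) over chr3:161455332-161458245 (2914 bp, 66.8 kb) and chr7:137769170-137771642 (2473 bp, 385.5 kb) to chr10:31439684-31442074 (2391 bp, 213.8 kb). Of these, the peak on chromosome 7 lacked iOL H3K4me3 and had 12 Olig2 peaks within 100 kb.

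The widest RNAPII peaks of all met neither factor. The peak chr8:69443579-69449076 spanned 5498 bp and lay 228.3 kb from Brg1 and 7.43 kb from Olig2. The peak chr2:191304480-191308877 (4398 bp) lay 208.7 and 19.4 kb away, chr9:71389541-71393220 (3680 bp) 171.7 and 46.5 kb, and chr10:71355101-71358238 (3138 bp) 60.3 and 5.54 kb. All 4 were acetylated and all 4 were also in the OPC RNAPII list. These 4 regions thus held RNAPII at both stages and met no iOL Brg1 or Olig2 peak.

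The most remote peaks were of several kinds. From Brg1 the farthest were chrX:129009630-129010468 at 5768 kb, chrX:63471430-63472253 at 4952 kb and chr1:72911501-72912406 at 3432 kb; those on X had neither mark, and the peak on chromosome 1 had both. From Olig2 the farthest were chr3:73892211-73893525 at 929.8 kb, with neither mark, and the neighbouring promoters chr8:909978-910996 at 753.2 kb and chr8:857538-858616 at 700.7 kb. At the distance thresholds, the last RNAPII peaks inside 5, 20 and 100 kb lay 4996, 19948 and 99752 bp from Brg1, and the first outside lay 5042, 20469 and 100084 bp away. For Olig2 the last inside lay 4994, 19999 and 99890 bp away, and the first outside 5013, 20004 and 100366 bp.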

How the data were processed

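Each of the 17 ChIP-seq samples had 1 peak list, rat build rn4, made by the authors with MACS 1.4.0 per the submitters' processing notes. The deposited files hold 3 columns (chromosome, start, end) and no score or other signal, so depth and peak strength are unknown. For the aligner, control library and calling threshold, the sources used here gave nothing. The mouse RNA profiles were not analysed here.

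From the lists, distances between peak edges were computed (0 bp where at least 1 base is shared) with Python 3.11.15, numpy 2.4.6 and pandas 2.3.3; bedtools 2.31.1 gave the same distance for 21290 of 21290 regions and factors. Shares have exact Clopper-Pearson and differences Newcombe 95% intervals. Beside 0 of 1044, the share that 3 cases would make is given, which lies below the upper end of the exact interval. Factor lists were shifted 100 times around each chromosome, whose length was the largest peak end in the 17 lists. The distance code was tested on simulated data. With 1 library per target and stage, no test was made. Regions were named by width, by Brg1 neighbours and by distance.

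The members and lists were chosen with earlier results of these data known. The splits by H3K4me3, by H3K4me3 of any stage, by acetylated regions and by promoter density were added after seeing the data.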

Additional observations from a re-analysis of the deposited data

How the results depend on the processing

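Of 63 alternatives, 40 moved a value within its 95% interval, 15 moved it beyond, and 8 turned the sign of a value whose interval excluded 0. The Brg1 difference within 20 kb, whose interval includes 0, also changed sign under 4 alternatives, 3 of them given below and -0.650 with acetylated peaks only. With members limited to RNAPII peaks with H3K4me3, the difference between RNAPII and control peaks was -0.427 points for Brg1 and 0.920 for Olig2 at 0 kb, and -3.60 and -1.62 within 20 kb. H3K4me3 peaks with and without RNAPII, averaged over quartiles of width, gave -0.982 and -0.704 at 0 kb and -5.07 and -3.74 within 20 kb. Quartiles of promoter density, chosen after seeing the data, gave 0.00624 and 1.08 at 0 kb and -3.71 and -2.35 within 20 kb. These settings leave out the RNAPII peaks without H3K4me3. The wider 50% of RNAPII peaks gave 12.4 points for Olig2 at 0 kb and 5.97 within 20 kb, and the wider 50% of Olig2 peaks 6.15 within 20 kb; the cause was not tested. Of the widest Olig2 peaks, as many as Brg1 peaks, 9.99% had a nearest promoter with RNAPII. The following were chosen after seeing the data. RNAPII peaks without minus with H3K4me3 gave 7.69 points for Brg1 and 16.9 for Olig2 where 50% of the shorter peak had to be shared, and 15.1 for Brg1 with H3K4me3 of any stage counted. Acetylated regions without H3K4me3, with minus without RNAPII, gave 6.75 points for Brg1 and 1.05 for Olig2 with H3K4me3 of any stage counted, and for Olig2 -22.9 over quartiles of width and -4.49 with the wider 50% of Olig2 peaks. Distance between centres gives no value at 0 kb. No paired analysis was possible because each target and stage had 1 library. Depth is unknown, so a missing peak cannot be told apart from one below the calling threshold.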

Other observations

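Counting each peak itself, a mean of 2.02 RNAPII peaks lay within 100 kb of an RNAPII peak without H3K4me3, against 1.45 for one with it; the median was 1 in both groups, and 34.6% and 31.1% had at least 2. Chromosome X, singled out after its values were seen, held 33 RNAPII peaks, of which 21 lacked H3K4me3, against 381 of 1425 over all chromosomes.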
